A study of Mus musculus with 6 samples.

Results

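Mucin-type O-glycosylation and sialylation enzymes are Golgi proteins that build and cap the sugar chains of mucins and other secreted or membrane proteins. The 48 transcripts described here were taken by gene symbol from the filtered count table of 17527 rows. They comprised every Galnt, Gcnt, B3gnt, St3gal, St6gal and Fut gene of that table with a number or a family ending in its symbol, together with C1galt1 and C1galt1c1. The selection used no measured difference between groups. By family there were 15 Galnt, 2 C1galt, 4 Gcnt, 8 B3gnt, 6 St3gal, 1 St6gal, 5 St6galnac and 7 Fut members. A further 9 genes with matching symbols fell outside the filtered table, with 0 to 15 counts summed over all libraries. These were B3gnt4, B3gnt7, Fut7, Galnt13, Galnt9, Galntl5, Gcnt7, St6gal2 and St6galnac5. The antisense transcript Galnt6os was not taken as an enzyme, and a row named Wbscr17, an older symbol of Galnt17, lay outside the rule with 69 summed counts.

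RNAseq was performed on submandibular glands (SMGs) of adult female mice. The design compared 3 glands labelled WT (numbered 1, 4 and 5) with 3 labelled DKO (numbered 1, 4 and 5), to ask which transcripts differ when 2 heparan sulfate 3-O-sulfotransferases are lost. DKO mice carry a frameshift deletion in exon 1 of Hs3st3a1 and a LacZ cassette in Hs3st3b1, on a C57BL/6 background. Both alleles were inherited through the germline and are not limited to one cell type, and which founder line these glands came from was not given in the sources used here. Age was given only as adult, and the sources do not say whether each gland came from its own mouse, so p-values measure the spread between these 6 glands. Total counts ranged from 23674258 to 29611975 per library, of which the members took 0.112% to 0.161%.

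Mucin-type O-glycans begin when a polypeptide GalNAc-transferase links GalNAc to a serine or threonine. Core 1 synthase then adds galactose, a branching enzyme may open a core 2 arm, and N-acetylglucosaminyltransferases and galactosyltransferases lengthen the chains before sialic acid or fucose closes them. In salivary glands these chains give secreted mucins their negative charge, hydration and binding sites for microbes. Several enzymes named here also act on N-glycans or glycolipids, and the B3gnt and Fut families in particular are not confined to mucins.

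Normalized counts of Hs3st3a1 were 14.8, 10.8 and 13.4 in WT 1, 4 and 5 and 10.4, 8.36 and 14.99 in DKO 1, 4 and 5. Those of Hs3st3b1 were 171, 199 and 234 against 242, 125 and 218. Gene counts thus did not separate the groups, and "DKO" refers to the label of each library. By quantitative PCR, the paper reported that neither transcript was expressed in adult DKO SMGs of either sex. The counts are per gene, and whether they can show the exon deletion or the LacZ cassette was not tested. They are therefore no check of the genotype. Markers of the neighbouring sublingual and parotid glands (7 of 8 listed genes tested, led by Muc19, Bpifa2, Amy1 and the Dcpp genes) summed to 459 and 463 normalized counts in WT 1 and WT 4 but 193856 in WT 5. In DKO 4 and DKO 5 they summed to 340 and 310, and in DKO 1 to 10035. Of these markers Amy1 was raised only in WT 5, at 24742, and was 225 in DKO 1 against 131 to 256 in the other libraries. WT 5 and DKO 1 therefore stood apart before any comparison was made. Values without them are given beside several results. Those tests had fewer libraries per group, and DESeq2 calls at an adjusted p under 0.05 fell from 539 to 183 over all rows. A call lost in that setting therefore cannot show by itself that a difference depended on WT 5 and DKO 1.

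Most lists of cell type markers of the gland itself also moved with the label. Of 10 acinar markers 4 were called higher in DKO, with sums of 8525590 to 10469600 normalized counts in WT and 10960800 to 13355000 in DKO. Picked out after their values were seen, Spt1 made up most of these sums and overlapped between groups (8298700 to 10113800 against 9948670 to 12174200, adjusted p = 0.0758), while Mucl1 was at 62.6 to 238 in WT and 632646 to 870779 in DKO. Slc12a2 and Ceacam1 had log2 fold changes of -0.08 and 0.09 (adjusted p = 0.853 and 0.849). All 10 myoepithelial markers were called lower, with sums of 13746 to 14779 against 7744 to 9905. Of 14 duct markers 7 were called lower, with sums of 234169 to 251928 against 122198 to 169002. Lymphoid markers (10 of 11 tested) held 4 calls, all lower, with sums of 755 to 2049 against 342 to 650, and Cd8a was at 0 in all 3 DKO libraries. Of 6 fibroblast markers 2 were called lower, with sums of 11095 to 15736 against 8351 to 11896. Endothelial markers (5 tested) held 0 calls, with sums of 1703 to 1942 against 1835 to 2217. Of these, 4 had a positive log2 fold change, and 2 lay wholly above WT and 1 wholly below. In whole glands, fewer cells of a type and less RNA per cell cannot be told apart, and the part of these markers in the results on glycosylation enzymes was not tested.

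The members spanned a wide range of levels, compared here as normalized counts per kb of exon because counts of long and short transcripts are not comparable. St3gal4, a sialyltransferase that caps galactose of N-acetyllactosamine, had the highest mean level at 2644 per kb and supplied 33.1% of the summed level of all 48 members. St3gal1, which caps the galactose of core 1, followed at 1568 per kb and 19.6%. Together these 2 sialyltransferases held 52.7% of the summed level. Gcnt1 came next by mean (730 per kb), but its mean described no single library. Galnt7 (670 per kb) and Galnt3 (656 per kb) followed, and the first 6 members held 82.3% of the total. C1galt1c1 (310 per kb), Galnt10 (297 per kb) and C1galt1 (199 per kb) were next, and each of the other 40 members lay below 90 per kb. The female SMG thus held abundant transcripts for initiation, core 1 synthesis and alpha2,3 sialylation, while the St6gal, St6galnac and Fut families summed to 17.8 to 106 per kb as group means.

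**Figure D1:**
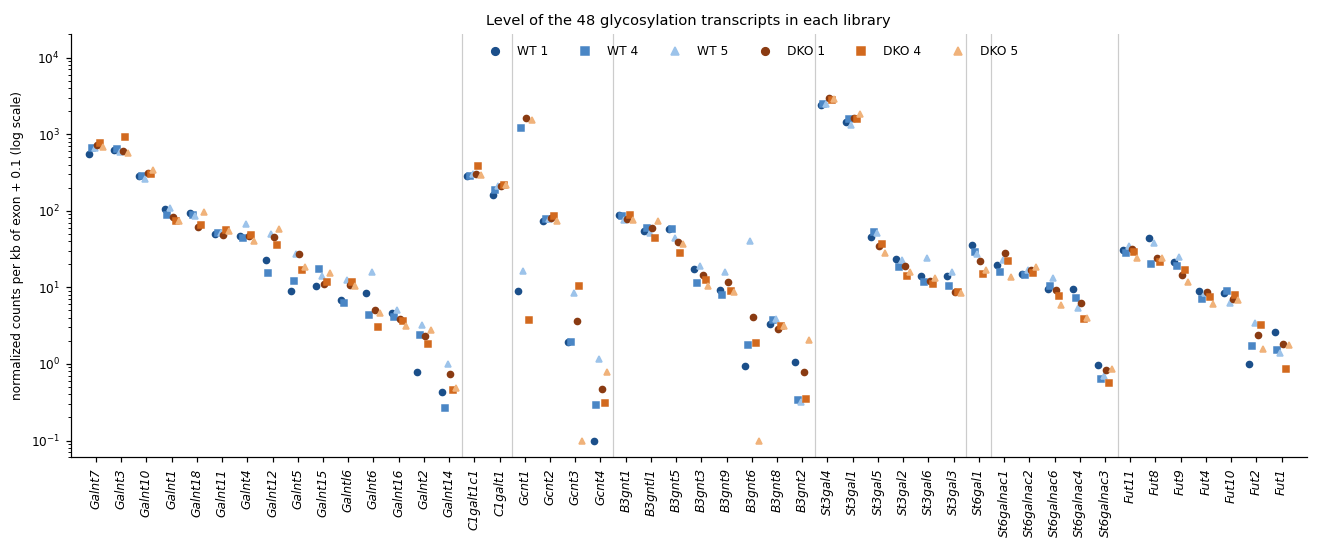
Normalized counts per kb of exon, plus 0.1, on a log axis for the 48 members in each of the 6 libraries, ordered by family (Galnt, C1galt, Gcnt, B3gnt, St3gal, St6gal, St6galnac, Fut) and by mean level within a family. St3gal4 and St3gal1 lie highest, and Gcnt1 is the member whose libraries split most widely.

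Few members differed between WT and DKO. By the two-sided Wald test of DESeq2 with Benjamini-Hochberg adjustment over all rows, 2 of 48 members (4.17%) were called at an adjusted p under 0.05, and both were lower in DKO. Across all 18606 rows tested, 2.90% were called, 1.02% higher and 1.88% lower. An adjusted p was given for 43 members. The 5 without one were B3gnt2, Fut1, Galnt14 and Gcnt4, for which the low-count filter of DESeq2 withheld it, and Gcnt1, which its outlier filter removed. At an unadjusted p under 0.05 there were 11 members (22.9%), 4 higher and 7 lower, where all rows gave 12.2% in either direction, 4.92% higher and 7.26% lower. The groups did not overlap for 14 members (29.2%), 5 with all DKO libraries above WT and 9 below, against 20.3% of all rows, 9.85% above and 10.5% below. The median log2 fold change of DKO over WT was -0.07 over the members and 0.00 over all rows, with 20 members (41.7%) positive and 28 negative, where 50.2% of all rows were positive.

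Level and direction went together among the members. All 7 members with a mean of at least 1000 normalized counts had a positive log2 fold change, with a median of 0.22, and in 5 of them every DKO library exceeded every WT library. Among all 2340 rows at that level, 58.9% were positive and 16.8% had every DKO library above WT. Of 15 members with means from 100 to 1000, 5 were positive, and in 5 all DKO libraries lay below WT, where 56.1% of all rows at that level were positive and 9.59% lay below. Of 26 members under 100, 8 were positive and 4 (15.4%) lay wholly below WT, close to the 11.4% of all rows there, of which 42.7% were positive. These sizes are small beside the scaling of the libraries. With total counts in place of median-of-ratios size factors, the median of all rows moved to -0.23 and that of the members to -0.31, and only 5 members remained positive.

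**Figure D2:**
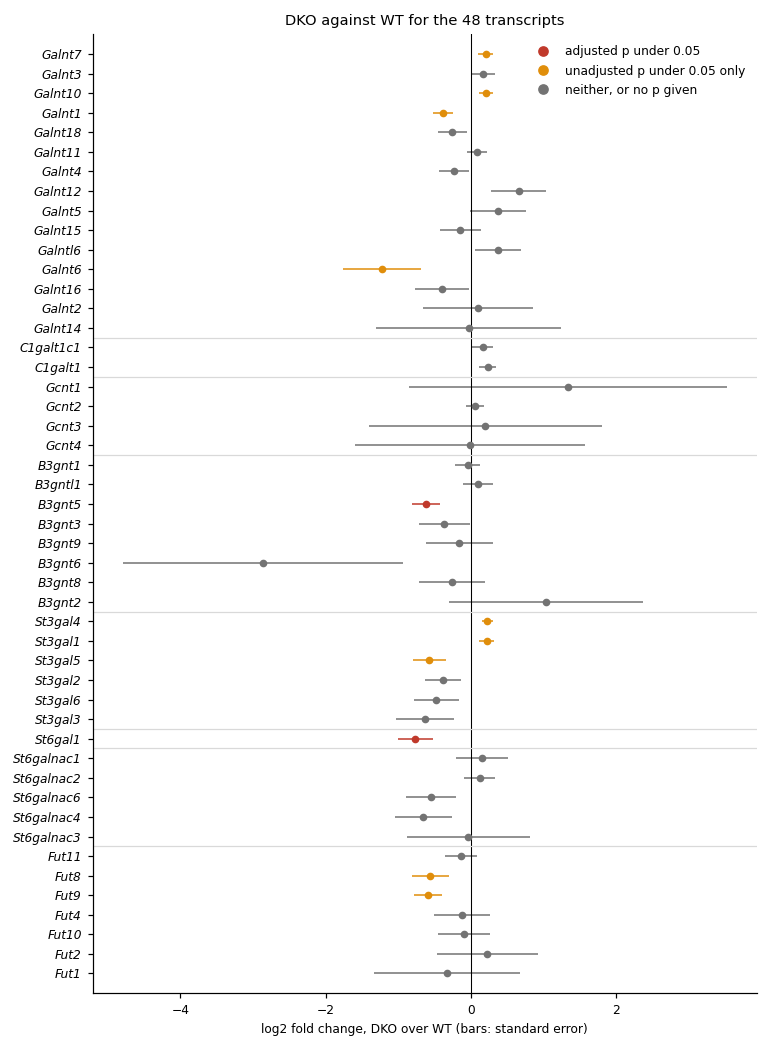
Log2 fold change of DKO over WT with its standard error from DESeq2 for the 48 members, ordered by family and level. Red marks B3gnt5 and St6gal1, the 2 members with an adjusted p under 0.05, and orange marks the 9 further members with an unadjusted p under 0.05. The widest bars are those of Gcnt1, B3gnt6, Gcnt3 and Gcnt4.

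The polypeptide GalNAc-transferases start the chain, and some of them act mainly on peptides that already carry GalNAc. None of the 15 Galnt members was called. Galnt7, one of the enzymes that follow an earlier GalNAc, had the highest level per kb. Its normalized counts were 2911, 3436 and 3464 in WT 1, 4 and 5 and 3749, 3979 and 3590 in DKO 1, 4 and 5. All DKO values lay above WT, by 0.21 ± 0.10 on the log2 scale (SE, adjusted p = 0.347). Galnt10, which has a like preference, gave 1676, 1700 and 1555 in WT and 1855, 1822 and 2012 in DKO. Here too the groups did not overlap, and the difference was 0.21 ± 0.10 on the log2 scale (SE, adjusted p = 0.286).

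Galnt1, a broad initiating enzyme, went the other way. It was counted at 578, 481 and 591 in WT and 458, 405 and 401 in DKO, with every DKO library below WT. The log2 fold change was -0.38 ± 0.14 (SE, adjusted p = 0.102). The adjusted p was 0.0278 without WT 4 and 0.0691 to 0.549 with each other library left out. Without both WT 5 and DKO 1 the log2 fold change was nearly the same, at -0.40 (adjusted p = 0.595). Galnt6, a close paralog of Galnt3, was low, at 32.7, 16.6 and 61.8 in WT and 19.0, 11.5 and 17.3 in DKO. WT 5 held the highest value and the groups overlapped, so that the log2 fold change of -1.22 ± 0.54 (SE, adjusted p = 0.245) became -0.78 (adjusted p = 0.977) without WT 5 and DKO 1.

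The rest of the Galnt family had unadjusted p-values above 0.05. Galnt3, an initiating enzyme with a level close to that of Galnt7, was at 2718, 2809 and 2580 in WT and 2624, 4028 and 2459 in DKO, where only DKO 4 stood above WT. Galnt12, which prefers peptides already carrying GalNAc, was at 51.5, 35.2 and 112 in WT and 104, 80.5 and 130 in DKO. Its log2 fold change of 0.66 (adjusted p = 0.465) rose to 1.28 and was called (adjusted p = 0.0406) when WT 5, the highest WT library, was left out. It was 0.36 (adjusted p = 0.847) without WT 4 and 1.28 (0.185) without both WT 5 and DKO 1. Galnt18, Galnt11, Galnt4, Galnt5, Galnt15, Galntl6 and Galnt16 lay between 3.98 and 81.1 per kb, with log2 fold changes from -0.40 to 0.37. Galnt16 was lower in every DKO library (36.6, 32.3 and 40.3 against 30.4, 28.2 and 24.2). Galnt2, a broad initiating enzyme, and Galnt14 stood at only 2.12 and 0.467 per kb. Galnt2 shares its strand with an overlapping annotated gene, Gm20388, listed at 0 counts, and Galnt4 lies within Poc1b on the same strand, so the counts of both depend on how shared reads were assigned.

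Core 1 synthesis needs the galactosyltransferase C1galt1 and its chaperone Cosmc, encoded by C1galt1c1 on the X chromosome. C1galt1 was at 963, 1120 and 1264 in WT and 1272, 1325 and 1326 in DKO. The DKO values all exceeded WT, though the highest WT and lowest DKO library differed by little, and the log2 fold change was 0.23 ± 0.12 (SE, adjusted p = 0.391). C1galt1c1 was at 415, 417 and 440 in WT and 443, 554 and 427 in DKO, with overlapping groups and a log2 fold change of 0.16 ± 0.14 (SE, adjusted p = 0.731). Per kb, the chaperone was the more abundant of the pair, with 61.6% ± 2.56 of their sum in WT and 60.2% ± 3.19 in DKO (SD, n = 3).

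Gcnt1, the core 2 branching enzyme, had the most divergent values of any member. The gene lies on the reverse strand of chromosome 19 (chr19:17326141-17372844, GRCm38, GENCODE M21). Raw counts were 51, 7176 and 105 in WT 1, 4 and 5 and 9721, 20 and 7650 in DKO 1, 4 and 5. After normalization these were 50.5, 7020 and 94.0 in WT and 9223, 20.9 and 8820 in DKO. The highest library exceeded the lowest by 139 times within WT and by 441 times within DKO. Both a high and a low level thus occurred under each label, and the difference between labels (log2 fold change 1.33 ± 2.19, SE) was smaller than the spread within them. DESeq2 gave no p for this gene. Leaving out WT 4, the 1 WT library with a high count, changed the log2 fold change to 6.38 and gave a call (adjusted p = 0.0291), while each other single omission of WT or DKO gave 0.76 or more, with no call and, for each DKO library, again no p. This call rests on which libraries remain.

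Such a spread was rare in the table. Of 11489 rows with a mean of at least 50 normalized counts, Gcnt1 ranked sixth by the smaller of its within-group ranges, 7.09 log2 units, computed on counts plus 1. Only 14 rows spanned 5 or more log2 units within both groups. They included Dcpp2, Dcpp3, BC048546, Muc19, Bpifa2 and Chia1, which were highest in WT 5 and DKO 1, as well as Ren1, Rprl3 and Hist1h2al. Gcnt1 did not follow the sublingual and parotid markers, since it was low in WT 5 and high in WT 4 and DKO 5. The next member by the same measure was Galnt12, at 0.69 log2 units, and the median over all rows was 0.17.

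Genes beside Gcnt1 showed no comparable range. Rfk, 21.2 kb away, spanned 535 to 712 normalized counts, a ratio of 1.33 between its highest and lowest library. Vps13a and Gnaq, 545 kb and 939 kb away, had ratios of 1.18 and 1.10. Pcsk5, 59.5 kb away, had a ratio of 2.22, and Prune2, 102 kb away, had the largest of these 6 neighbours at 7.22, with 34.6 in DKO 5 and 250 in DKO 4. In DKO 5, where Gcnt1 was high, Prune2 was lowest, and in WT 4, also high in Gcnt1, it was 103.

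RefSeq lists 3 starts for Gcnt1 on GRCm38.p6. The 250 bases before the outermost start and before the second start are shown because these are the stretches nearest to the gene whose level varied so widely. Capitals mark the TATA box letters TATAAA, the letters CCAAT common near starts and the GC box letters GGGCGG, each searched on both strands, and no matches overlap in the windows shown.
Gcnt1 outermost start, chr19:17372845-17373094, reverse strand: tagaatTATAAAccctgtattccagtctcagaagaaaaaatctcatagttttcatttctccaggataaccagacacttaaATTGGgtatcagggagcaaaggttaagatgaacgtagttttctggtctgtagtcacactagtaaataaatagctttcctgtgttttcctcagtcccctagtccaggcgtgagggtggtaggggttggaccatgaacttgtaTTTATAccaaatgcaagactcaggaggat
Gcnt1 second start, chr19:17356668-17356917, reverse strand: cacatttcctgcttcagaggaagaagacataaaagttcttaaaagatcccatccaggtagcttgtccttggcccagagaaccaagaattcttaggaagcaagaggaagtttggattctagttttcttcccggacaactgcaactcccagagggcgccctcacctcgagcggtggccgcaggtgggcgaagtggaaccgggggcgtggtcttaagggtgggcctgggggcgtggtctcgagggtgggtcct
The outermost window lies outside annotated genes and holds TATAAA on both strands, the reverse match beginning 29 bases before the start, with 1 reverse CCAAT. The second window is intronic and holds none of these letters. Of 32536 promoter windows of the same length, 12.3% hold TATAAA, 33.8% CCAAT and 33.0% GGGCGG on either strand. The counts are per gene, so which start was used in any library cannot be read from them.

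The other branching enzymes did not share the split of Gcnt1. Gcnt2, which branches N-acetyllactosamine chains, was at 525, 552 and 547 in WT and 574, 607 and 511 in DKO. Its log2 fold change was 0.06 ± 0.12 (SE, adjusted p = 0.92). Gcnt3, which makes core 2 and core 4, was low at 7.92, 7.83 and 35.8 in WT and 15.2, 43.9 and 0 in DKO, and Gcnt4 never exceeded 5.37. Because Gcnt2 was steady, the family's makeup followed Gcnt1. Gcnt1 supplied 10.3%, 93.8% and 15.8% of Gcnt counts per kb in WT 1, 4 and 5 and 94.9%, 3.62% and 95.4% in DKO 1, 4 and 5. The mean share was 40.0% ± 46.7 in WT and 64.7% ± 52.9 in DKO (SD, n = 3; exact two-sided permutation test, p = 0.8, smallest possible 0.1).

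**Figure D3:**
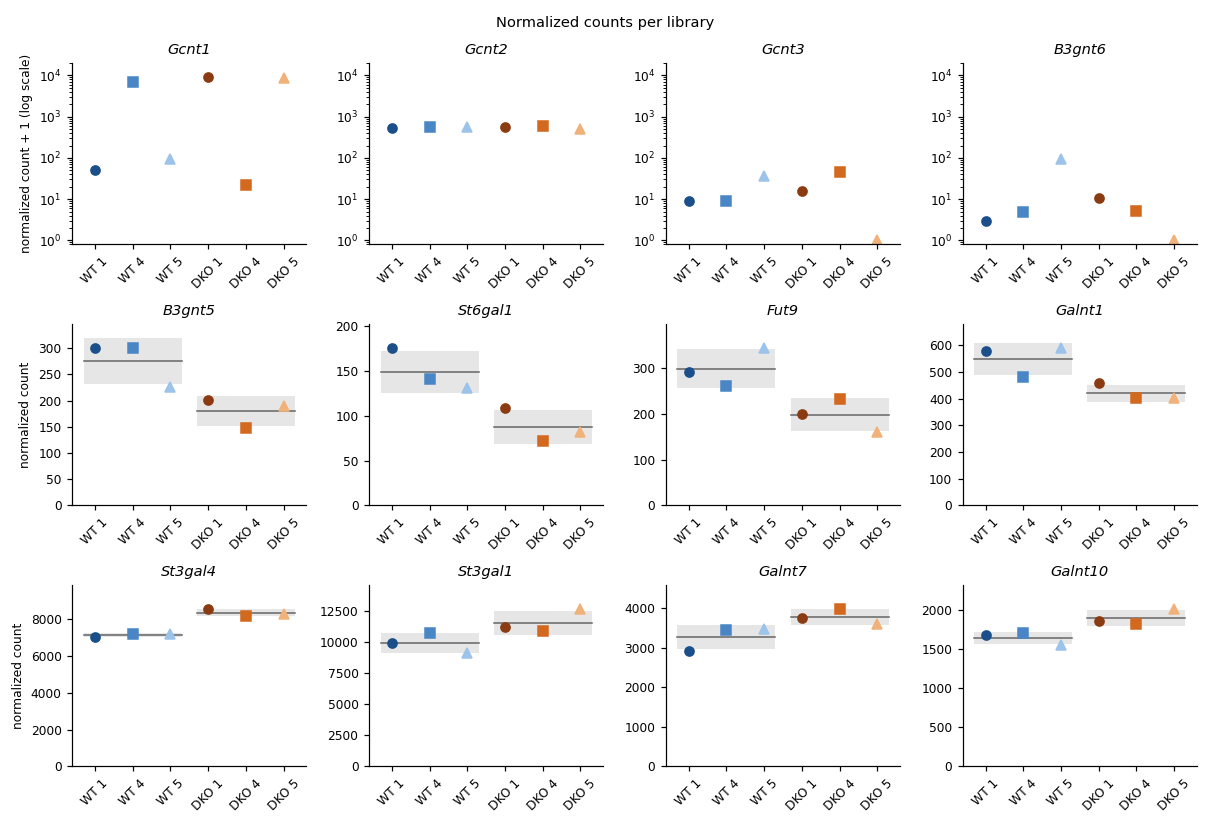
Normalized counts in each library for 12 members, the upper row as counts plus 1 on a log axis and the others on a linear axis from 0, where lines and bands give each group's mean ± SD (n = 3). Gcnt1 lies between 7020 and 9223 in WT 4, DKO 1 and DKO 5 and between 20.9 and 94.0 in the other libraries, and B3gnt6 is highest in WT 5.

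Among the extension enzymes, B3gnt5 was the only called member. It encodes the synthase that starts lacto- and neolacto-series glycolipids, and lies on the forward strand of chromosome 16 (chr16:19760208-19772753, GRCm38). Counts were 301, 300 and 226 in WT 1, 4 and 5 and 202, 147 and 189 in DKO 1, 4 and 5. Every DKO library lay below every WT library, with WT 5 and DKO 1 closest to each other. The level fell by 0.62 ± 0.19 on the log2 scale (SE, DESeq2 adjusted p = 0.0463). B3gnt5 remained called without WT 5 (adjusted p = 0.0474) or without DKO 1 (0.0417), and lost the call without WT 1 (0.388), WT 4 (0.196), DKO 4 (0.263) or DKO 5 (0.181). With both WT 5 and DKO 1 left out the log2 fold change was -0.84 (adjusted p = 0.0808), and by edgeR it was -0.61 (adjusted p = 0.17).

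The window before the single RefSeq start of B3gnt5 is shown as one of the 2 called members. Capitals mark the same letters as above.
B3gnt5 start, chr16:19759984-19760233, forward strand: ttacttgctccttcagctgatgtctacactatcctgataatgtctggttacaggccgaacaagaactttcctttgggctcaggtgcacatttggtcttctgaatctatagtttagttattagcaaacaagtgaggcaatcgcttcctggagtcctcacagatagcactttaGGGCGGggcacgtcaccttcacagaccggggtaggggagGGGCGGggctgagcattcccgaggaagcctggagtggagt
It holds GGGCGG in 2 places, 79 and 40 bases before the start.

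B3gnt6, the core 3 synthase, was at 1.98, 3.91 and 94.0 in WT and 9.49, 4.18 and 0 in DKO. Its counts were highest in WT 5 and next in DKO 1, the 2 libraries with the highest sums of sublingual and parotid markers, though Amy1 was not raised in DKO 1. The log2 fold change was -2.86 ± 1.93 (SE, adjusted p = 0.587) and became 0.65 without WT 5. A count of 0, as in DKO 5, allows up to 3 reads. The row B3gnt1 had the highest level of this family (81.4 per kb), with normalized counts of 202, 196 and 175 in WT and 179, 200 and 175 in DKO. The groups overlapped and differed by -0.04 ± 0.17 on the log2 scale (SE, adjusted p = 0.962). RefSeq gives that symbol as a former name of both B3gnt2 and B4gat1. Since B3gnt2 has its own row, the row was read as B4gat1, a glucuronyltransferase of dystroglycan chains, and its length was taken from that gene.

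The remaining B3gnt members did not pass the test. B3gntl1 (56.8 per kb), B3gnt3, an enzyme that extends core 1 (14.0 per kb), B3gnt9 (10.3 per kb) and B3gnt8 (3.24 per kb) had log2 fold changes from -0.36 to 0.10. B3gnt8 was slightly lower in every DKO library (20.8, 23.5 and 24.2 against 18.0, 19.9 and 19.6). It overlaps Bckdha on the opposite strand, which had 14875 summed counts against 127 for B3gnt8. B3gntl1 likewise overlaps Tbcd, with 4826 against 1196, and B3gnt9 overlaps D230025D16Rik, with 1790 against 158. Outside this family, St3gal6 overlaps Dcbld2 (983 against 539) and St6galnac2 overlaps 1810032O08Rik (322 against 681), also on the opposite strand. The same holds for Fut11 and 6230400D17Rik (207 against 765). As the libraries carried no strand information, reads in exon bases shared by such a pair cannot be told apart. These overlaps are of whole gene spans, and whether exons are shared was not tested. B3gnt2, an enzyme of poly-N-acetyllactosamine synthesis, had only 17 summed counts and overlaps the annotated gene Gm28048 on its own strand.

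Sialic acid in alpha2,3 linkage is added by the St3gal enzymes, the most abundant family. Their summed level per kb was 3939, 4108 and 3909 in WT and 4627, 4451 and 4749 in DKO. St3gal4 (chr9:35046576-35119268, reverse strand) was at 6994, 7163 and 7199 in WT and 8546, 8176 and 8292 in DKO, with narrow groups that did not overlap. The log2 fold change was 0.23 ± 0.08 (SE), with an unadjusted p of 0.00252 and an adjusted p of 0.0633. The adjusted p was 0.0222 without DKO 4, 0.0879 to 0.362 with each other library left out and 0.657 without both WT 5 and DKO 1, at a log2 fold change of 0.22. St3gal1 (chr15:67102875-67176830, reverse strand) was at 9932, 10726 and 9133 in WT and 11164, 10853 and 12656 in DKO, again without overlap, at 0.22 ± 0.10 on the log2 scale (SE, adjusted p = 0.279). With total counts as size factors, the log2 fold changes were -0.01 for both St3gal4 and St3gal1, while the median of all rows moved from 0.00 to -0.23. Both genes lay about as far above the median row under either scaling. New size factors shift most rows by nearly the same amount, so this is no test of the difference. The share of St3gal4 within the family, which does not depend on the scaling, was 61.1% ± 1.71 in WT and 61.9% ± 1.90 in DKO (SD, n = 3; exact two-sided permutation test, p = 0.7).

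The other 4 St3gal members were far less abundant, at 10.9 to 41.1 per kb, and all had negative log2 fold changes. St3gal5, the synthase of the ganglioside GM3, was at 118, 136 and 133 in WT and 90.1, 96.2 and 72.6 in DKO. Every DKO library lay below WT, with a log2 fold change of -0.57 ± 0.23 (SE, adjusted p = 0.153). St3gal5 overlaps the annotated gene Gm29438 on its own strand, which had 206 summed counts against 656 for St3gal5. St3gal3, which acts on N-acetyllactosamine, was also lower in every DKO library, at 38.6, 28.4 and 43.0 against 23.7, 24.0 and 23.1, with an adjusted p of 0.534. St3gal2 and St3gal6, which act on core 1 or gangliosides and on N-acetyllactosamine respectively, had log2 fold changes of -0.39 and -0.47 (adjusted p = 0.541 and 0.55). Within the family the 2 abundant members and the 4 scarce ones therefore lay on opposite sides of 0 under median-of-ratios scaling.

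**Figure D4:**
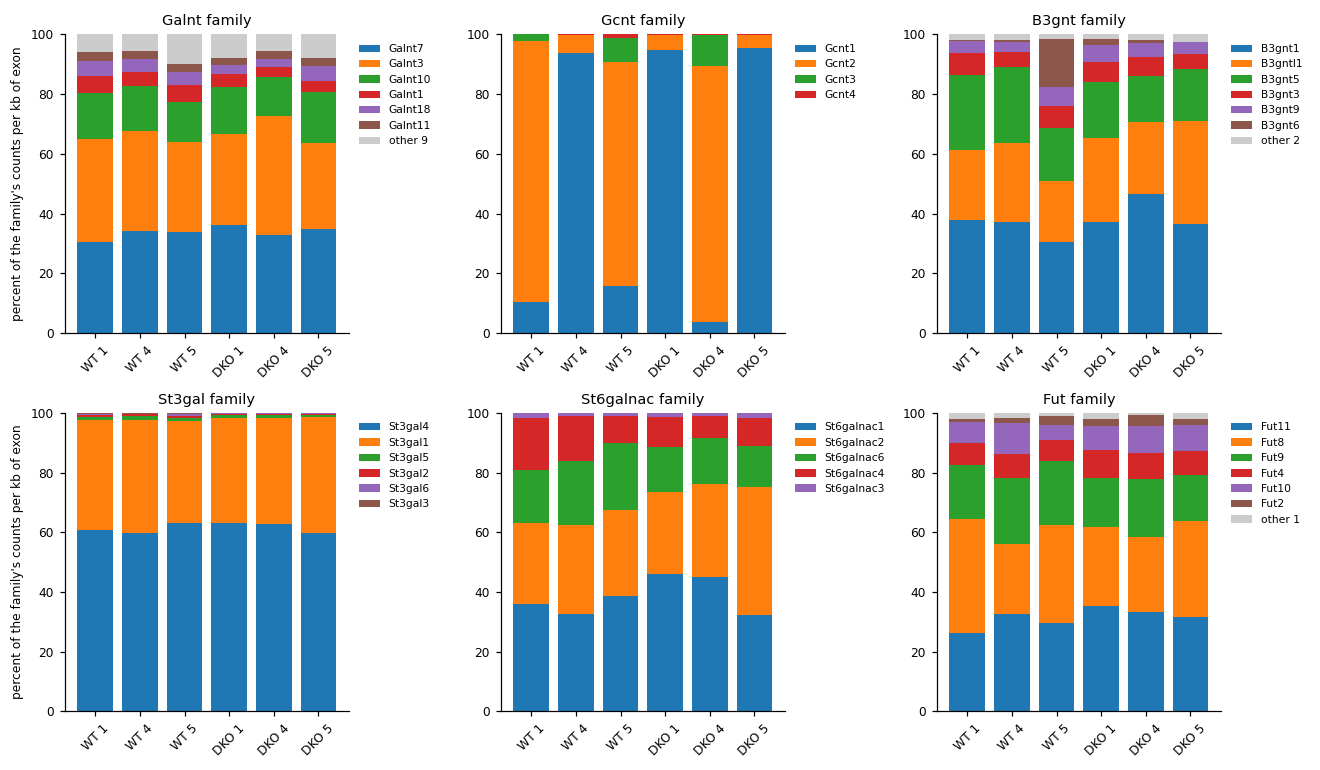
Share of each member in its family's normalized counts per kb of exon, as stacked bars from 0 to 100% for each library in the Galnt, Gcnt, B3gnt, St3gal, St6galnac and Fut families. The Gcnt bars switch between Gcnt2 and Gcnt1 from library to library, while St3gal4 holds 59.7% to 63.2% of its family throughout.

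St6gal1, which adds alpha2,6 sialic acid to N-acetyllactosamine, mainly on N-glycans, was the second called member. The gene lies on the forward strand of chromosome 16 (chr16:23224740-23360350, GRCm38). Counts were 176, 141 and 132 in WT 1, 4 and 5 and 109, 72.1 and 81.9 in DKO 1, 4 and 5. The groups did not overlap, with WT 5 lowest in its group and DKO 1 highest in the other. The level fell by 0.77 ± 0.24 on the log2 scale (SE, DESeq2 adjusted p = 0.0468). The call remained without DKO 1 (adjusted p = 0.0126) and was lost without WT 1 (0.428), WT 4 (0.0855), WT 5 (0.148), DKO 4 (0.259) or DKO 5 (0.265). Without both WT 5 and DKO 1 the log2 fold change was -1.04 (adjusted p = 0.113), and by edgeR it was -0.76 (adjusted p = 0.162). Both called members sat just under the threshold. Calls among the myoepithelial (10 of 10), duct (7 of 14), lymphoid (4 of 10) and fibroblast (2 of 6) markers were all lower in DKO. Those among the acinar markers (4 of 10) were all higher, and the 5 endothelial markers held 0 calls, with 4 positive. Over all rows 1.88% were called lower and 1.02% higher, and a relation of these markers to the 2 called members was not tested.

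Of the 3 RefSeq starts of St6gal1, the window before the outermost one is shown, marked as for B3gnt5.
St6gal1 outermost start, chr16:23224490-23224739, forward strand: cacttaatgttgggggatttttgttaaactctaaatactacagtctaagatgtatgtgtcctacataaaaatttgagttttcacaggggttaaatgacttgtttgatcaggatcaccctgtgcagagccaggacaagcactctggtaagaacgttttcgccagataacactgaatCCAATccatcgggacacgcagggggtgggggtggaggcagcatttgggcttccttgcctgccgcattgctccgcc
It holds CCAAT once, 75 bases before the start, and neither TATAAA nor GGGCGG. The windows of B3gnt5 and St6gal1 thus share none of the 3 motifs, and no relation to their levels was tested.

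The St6galnac enzymes attach sialic acid to GalNAc. St6galnac1, the sialyl-Tn synthase, led this family at 20.2 per kb. It was at 46.5, 37.2 and 53.7 in WT and 66.4, 53.3 and 32.3 in DKO, with overlap and a log2 fold change of 0.15 ± 0.36 (SE, adjusted p = 0.934). Without DKO 1 the sign turned (-0.09). St6galnac2, also an O-glycan enzyme, had a log2 fold change of 0.12 (adjusted p = 0.905), and St6galnac3 was at 0.666 per kb. St6galnac6, which acts on gangliosides, was below WT in every DKO library (45.5, 49.9 and 62.7 against 43.6, 36.6 and 27.7), with an adjusted p of 0.539. St6galnac4, an enzyme of disialyl-T, was at 61.4, 46.0 and 34.0 against 39.9, 24.0 and 25.4. St6galnac4 and St6galnac6 lie end to end on one strand, 10 bases apart, so reads that run past the first may be counted for the second.

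Fucosyltransferases were low as a family, and none was called. Fut11 was the leading member at 29.6 per kb, with 130, 119 and 147 in WT and 134, 123 and 103 in DKO (log2 fold change -0.14 ± 0.21, SE, adjusted p = 0.889). Fut9, which makes the Lewis x structure by alpha1,3 fucosylation, was at 292, 260 and 345 in WT and 200, 233 and 161 in DKO. All DKO values lay below WT, with a log2 fold change of -0.59 ± 0.19 (SE, adjusted p = 0.0521). Its adjusted p fell below the threshold without WT 4 (0.0359) or DKO 4 (0.0422) and was 0.119 to 0.470 with each other library left out. Without both WT 5 and DKO 1 the log2 fold change of Fut9 was -0.49 (adjusted p = 0.705). Fut8, the enzyme of core fucose on N-glycans, was at 351, 158 and 303 in WT and 188, 170 and 192 in DKO. WT 4 lay below every DKO library, while WT 1 and WT 5 lay above them all. The log2 fold change was -0.56 ± 0.25 (SE, adjusted p = 0.263). It was -0.83 (adjusted p = 0.000599) without WT 4, -0.33 (0.872) without WT 1 and -0.49 (0.889) without WT 5 and DKO 1, so its size and call rest on which WT libraries remain. Fut4, Fut10, Fut2, the secretor enzyme, and Fut1 lay at 1.55 to 7.68 per kb, with log2 fold changes from -0.33 to 0.23.

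The sugar donors and neighbouring pathways of these enzymes were described from fixed lists of genes, by counts. Nucleotide sugar supply held 20 tested genes, of which 1 was called higher and 0 lower, with 16 positive and 11 with every DKO library above WT. Over all rows 1.02% were called higher, 50.2% were positive and 9.85% had every DKO library above WT. The called gene was Tsta3, which completes GDP-fucose synthesis, at 646, 743 and 723 in WT and 895, 1158 and 889 in DKO (log2 fold change 0.48 ± 0.14, SE, adjusted p = 0.0232). The list's median log2 fold change was 0.21, where all rows had 0.00. Nucleotide sugar transport held 13 tested genes of 14, with 1 called higher, 0 lower and 10 positive (median 0.18). The called gene was the UDP-galactose transporter Slc35a2, at 454, 425 and 365 in WT and 550, 557 and 580 in DKO (0.44 ± 0.13, SE, adjusted p = 0.0325). With WT 5 and DKO 1 both left out, neither was called, with an adjusted p of 0.157 for Tsta3 and 0.583 for Slc35a2.

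Galactose extension held 16 tested genes, with 0 called higher and 1 lower (1.88% of all rows were called lower), B4galt5, a lactosylceramide synthase. It was at 69.3, 49.9 and 85.1 in WT and 25.6, 32.4 and 33.4 in DKO (log2 fold change -1.17 ± 0.34, SE, adjusted p = 0.0298), and was not called without WT 5 and DKO 1 (adjusted p = 0.738). N-glycan branching held 12 tested genes, with 0 called higher and 2 lower. Mgat3, which adds the bisecting GlcNAc, was at 245, 239 and 279 in WT and 160, 151 and 164 in DKO (-0.69 ± 0.17, SE, adjusted p = 0.00462). Man1a, a Golgi mannosidase that trims N-glycans, was at 1268, 1112 and 1307 in WT and 779, 782 and 998 in DKO (-0.53 ± 0.13, SE, adjusted p = 0.00577). Without WT 5 and DKO 1 the adjusted p-values were 0.351 and 0.421. Glycan sulfation (6 of 11 listed genes tested), sialic acid removal and polysialylation (11 of 14) and mucin core proteins (7 of 13) held 0 calls by DESeq2, with 1, 5 and 1 genes at an unadjusted p under 0.05. Their medians were -0.17, -0.09 and 0.24.

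**Figure D5:**
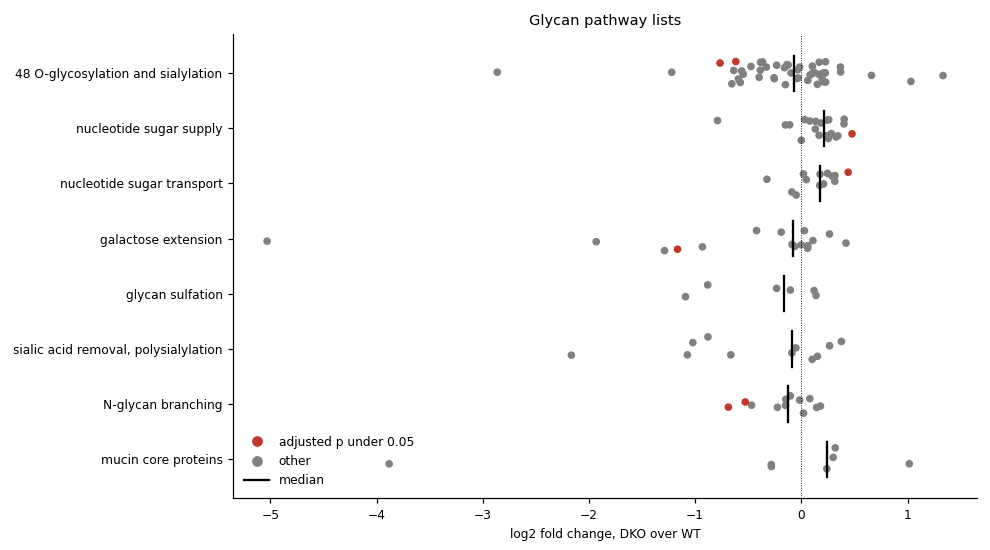
Log2 fold change of DKO over WT for the 48 members and for the genes tested in each of 7 pathway lists, one point per gene, with black lines at list medians and red points at an adjusted p under 0.05. Red points lie to the left of 0 for the members, galactose extension and N-glycan branching and to the right for nucleotide sugar supply and transport.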

How the data were processed

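Total RNA of 6 female SMGs was made into unstranded Nextera XT libraries and sequenced on a HiSeq2500 by the authors. Raw read counts keyed by gene symbol were deposited by the authors, unfiltered (43280 rows) and filtered to more than 5 counts in at least 1 library (17527 rows). The submitters' processing notes name STAR 2.5.2a, DESeq2, edgeR and limma and the builds GRCm38, mm10 and GRCh38, and the counting tool and annotation are not given in the sources used here. A deposited table of normalized values was not used. All count columns matched a library, and no row lacked a name.

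Unfiltered counts with at least 10 reads summed (18606 rows) were tested with DESeq2 1.42.0 in R 4.3.3 (median-of-ratios size factors, Wald test in both directions, fold changes without shrinkage, default outlier filter by Cook's distance, independent filter at 0.1, Benjamini-Hochberg adjustment). A call is an adjusted p under 0.05. The script was tested on simulated counts. Levels per kb divide normalized counts by the union of GENCODE M21 exons. Motif windows came from RefSeq (GRCm38.p6), which matched 32 of 48 members. Members with an adjusted or unadjusted p under 0.05 and the most abundant member of each role group were named with every library's value, as were up to 4 called genes of each pathway list. Other library values were added after they were seen. Members, lists and tests were chosen with earlier results of these data known. Alternatives were edgeR 4.0.16, limma-voom 3.58.1, TMM or total counts as size factors, other count filters, either DESeq2 filter off, a block for the replicate number and omission of single libraries. Leaving out both WT 5 and DKO 1 was chosen after seeing the data. Libraries of one group differed by more than sampling noise, so each counted as 1 replicate.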

Additional observations from a re-analysis of the deposited data

How the results depend on the processing

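The 2 calls among the members fell to 0 with edgeR, with limma-voom, with independent filtering off, with the replicate number as a block and with WT 5 and DKO 1 both left out (of which 0 lower in each). They rose to 6, all lower, with total counts as size factors. Leaving out 1 library at a time gave 0 to 4 member calls, 0 to 1 higher and 0 to 3 lower. Over all rows the 539 calls became 10 with edgeR (5 higher, 5 lower), 7 with limma-voom (3 higher, 4 lower), 1469 with total counts (62 higher, 1407 lower), 343 with the block (209 lower) and 183 without WT 5 and DKO 1 (81 higher, 102 lower), and single omissions gave 149 to 817 calls, 56 to 306 higher and 90 to 574 lower. At an unadjusted p under 0.05, edgeR gave 9 members and limma-voom 11. The median log2 fold change of the members moved from -0.07 to -0.31 with total counts. The same scaling reversed C1galt1c1 (-0.077), Galnt10 (-0.029), Galnt7 (-0.027), St3gal1 (-0.015), St3gal4 (-0.0053) and St6galnac1 (-0.078), since it lowered the median of all rows. Single omissions gave -0.094 (without DKO 1) to 0.388 for St6galnac1. B3gnt5 and St6gal1 kept a negative log2 fold change under every alternative run, and the difference in share of the leading member (Galnt, Gcnt, B3gnt, St3gal, St6galnac and Fut families) kept its sign with either other length setting and each library left out.

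Equal replicate numbers gave no sign of pairing the samples. Correlations over 3 libraries per group cannot exclude a pairing, and the paper compared DKO with WT littermates. The correlations of deviations between same-numbered libraries were -0.13, -0.02 and -0.26 for numbers 1, 4 and 5. Across numbers they were positive for WT 5 with DKO 1 (0.45), WT 4 with DKO 5 (0.44) and WT 1 with DKO 4 (0.27). They were negative for WT 4 with DKO 1 (-0.39), WT 5 with DKO 4 (-0.21) and WT 1 with DKO 5 (-0.14). With the replicate number as a block, B3gnt5 had an adjusted p of 0.213 and St6gal1 of 0.183. Members with fewer than 20 mean normalized counts (9 of 48) are limited by depth, and 3 libraries per group limit all tests.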

Other observations

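Outside the listed genes, the 14 rows that spanned at least 5 log2 units within both groups, the property in which Gcnt1 stood out among the members, did not share one pattern over the libraries. These genes were named after their values were seen. Ren1, which encodes renin, was at 47169 and 48304 normalized counts in WT 1 and WT 4 and 83.3 in WT 5, and at 113, 12505 and 23570 in DKO 1, 4 and 5. Gm11942 was at 336, 1.96 and 298 in WT and 249, 400 and 3.46 in DKO, so it was lowest in WT 4 and DKO 5, where Gcnt1 was high, but not in DKO 1. Hist1h2al was at 70.3, 70.4 and 0.896 in WT and 0.949, 85.7 and 99.2 in DKO. Ren1 and Hist1h2al were thus both lowest in WT 5 and DKO 1, the libraries where Dcpp2, Dcpp3, BC048546, Muc19, Bpifa2 and Chia1 were highest. None of these orders over the 6 libraries matches that of Gcnt1.

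The following genes were named after their values were seen, and none was called. Over all rows, 9.85% had every DKO library above WT and 10.5% below. Of the genes that supply activated sialic acid, Cmas, which makes CMP-sialic acid, was at 1547, 1706 and 1537 in WT and 1748, 2443 and 2148 in DKO. Every DKO library lay above WT, with a log2 fold change of 0.40 (DESeq2 adjusted p = 0.056). Gne, which commits UDP-GlcNAc to sialic acid synthesis, was also higher in every DKO library, with a log2 fold change of 0.25 (adjusted p = 0.265). Nans, of the same supply, overlapped between groups (0.26, adjusted p = 0.351), and Nanp, at a mean of only 4.17 normalized counts, had a log2 fold change of 0.03. St8sia4, a polysialyltransferase, was at 308, 164 and 237 in WT and 158, 162 and 127 in DKO, with a log2 fold change of -0.66 (adjusted p = 0.0982). Every DKO library lay below WT, but WT 4 and DKO 4 were nearly equal.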
